A study of Rattus norvegicus with 20 samples.

Results

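Cadherins and protocadherins are the calcium-dependent adhesion molecules with which neurons and glia recognise and hold each other, and 66 of their genes were measured here in the medial prefrontal cortex (mPFC) of rats that had received lysergic acid diethylamide (LSD), a psychedelic acting on serotonin receptors, or saline. The genes were chosen by name, as every symbol starting with Cdh and a digit or with Pcdh, and by depth, with a minimum of 5 reads in 10 or more of the 20 libraries. Of the 71 symbols with such a name, 66 passed, among 16605 genes that passed of the 31038 symbols listed. They comprised 20 classical and related cadherins, 34 clustered protocadherins (17 of the beta cluster, 16 of the gamma cluster and a single alpha entry, *Pcdha4*) and 12 other protocadherins. Cdh26, with 108 reads in all and 5 or more in 9 libraries, fell just outside the depth limit. Pcdh12, with 280 reads in all and 5 or more in 19 libraries, had the fewest such libraries of the members, and the other members reached 5 reads in all 20. Cdh16, Cdh17 and Pcdhb1 had 6, 5 and 4 reads in all 20 libraries together, and Pcdhgc5 had 0, so that none of these 4 was tested.

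The rats were male Sprague-Dawley animals, by the labels 6 to 8 weeks old at the start, housed singly and handled before treatment, which both groups shared. LSD-treated rats (n = 10) received 0.16 mg/kg intraperitoneally every other day over 90 days, and controls (n = 10) received sterile saline in the same way, and according to the labels the drug had been withdrawn for 3 weeks when the tissue was taken. The study's methods give a higher age and a longer interval, for both groups alike. A single poly(A)-selected library was made per rat. Libraries held 16346629 to 25552681 reads on genes in LSD-treated rats and 11098076 to 24201351 in controls, of which the 66 genes took 0.229% to 0.280% and 0.185% to 0.265%, respectively.

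Classical cadherins bind the same or a closely related cadherin on the facing cell and are tied through catenins to the actin cytoskeleton. Type I members such as *Cdh2* (N-cadherin) join cells strongly at adherens junctions and synapses, while type II members mark layers, areas and circuits of the cortex. Clustered protocadherins are chosen promoter by promoter in each neuron, under the control of CTCF and cohesin, and the resulting surface code lets a neuron tell its own branches from those of others. The remaining, non-clustered protocadherins act in axon growth, cell sorting and synapse maintenance.

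A short sequence shared by promoters of clustered genes is shown first because, in the exact form searched here, it sets the beta cluster apart. Promoter windows of 300 bases from RefSeq on GRCr8 (250 bases before to 50 after each start) were available by symbol for 51 of the 66 genes. Read along each gene, the 8-base string GTGGCGCT was 1 of 3 strings tied as the most frequent among the clustered promoters. The 3 tied strings overlap, since a G stood on either side of GTGGCGCT in all 14 beta promoters. Read on both strands (reverse complement AGCGCCAC), GTGGCGCT was found in 14 of 14 beta promoters, 0 of 13 gamma promoters and 0 of 1 alpha promoter. Among the other members it occurred in 1 of 12 cadherin promoters, that of *Cdh15*, and in 0 of 11 promoters of other protocadherins, against 370 of 33469 promoters (1.11%) in all. The string was found in these same promoters, so that its share among the beta genes describes them and tests nothing. Only exact matches were counted, so related forms in gamma or alpha promoters would be missed. The part of the string in promoter choice was not tested. The 20-base windows around it are given for 5 beta genes, 5′ to 3′ on the + strand of GRCr8, with the string in capitals.
Pcdhb3, chr18:29285609-29285628: cgcatgGTGGCGCTgttgac
Pcdhb5, chr18:29302409-29302428: cgcaggGTGGCGCTgcaggc
Pcdhb6, chr18:29320157-29320176: cacacgGTGGCGCTgcagtc
Pcdhb8, chr18:29339263-29339282: cacacgGTGGCGCTgcagtc
Pcdhb19, chr18:29478769-29478788: cacatgGTGGCGCTgcagga
The window was the same in *Pcdhb6* and *Pcdhb8*, in which the string lay 228 and 207 bases before the annotated start, farther away than in the other 12 beta genes (45 to 97 bases). When whole promoters were aligned with free ends, *Pcdhb6* and *Pcdhb8* had the most identical bases of the 91 pairs of beta genes. In that pair 232 of 266 aligned bases were identical (87.2%). Many other pairs aligned over short stretches only, where the percentage could be higher, as in *Pcdhb2* and *Pcdhb3* (9 of 10 bases, 90.0%).

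In the comparison of LSD-treated rats with controls, which asks what remained altered in the mPFC after repeated LSD, 6 of the 66 genes were higher (9.09%, against 6.48% of all 16605 genes) and 1 was lower (1.52%, against 8.54% of all genes). The genes past the threshold were the type II cadherins *Cdh7*, *Cdh8*, *Cdh10* and *Cdh12* and the protocadherins *Pcdh15* and *Pcdh20*, all higher, and the type I cadherin *Cdh15*, which was lower. No clustered protocadherin passed the threshold. Calls rest on an adjusted p under 0.05 in edgeR's quasi-likelihood test over all genes, every adjusted p below comes from that test unless another is named, and levels are RPM, reads scaled to the size of each library and normalised by TMM. Because the tissue was sequenced in bulk, fewer cells of a type and less RNA per cell cannot be told apart for any of these genes. The members' median log2 fold change was 0.08, with 42 of 66 above 0, against 0.002 and 50.4% for all genes. In no member did the groups of rats fail to overlap, which they did in 32 of all genes (0.193%).

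**Figure D1:**
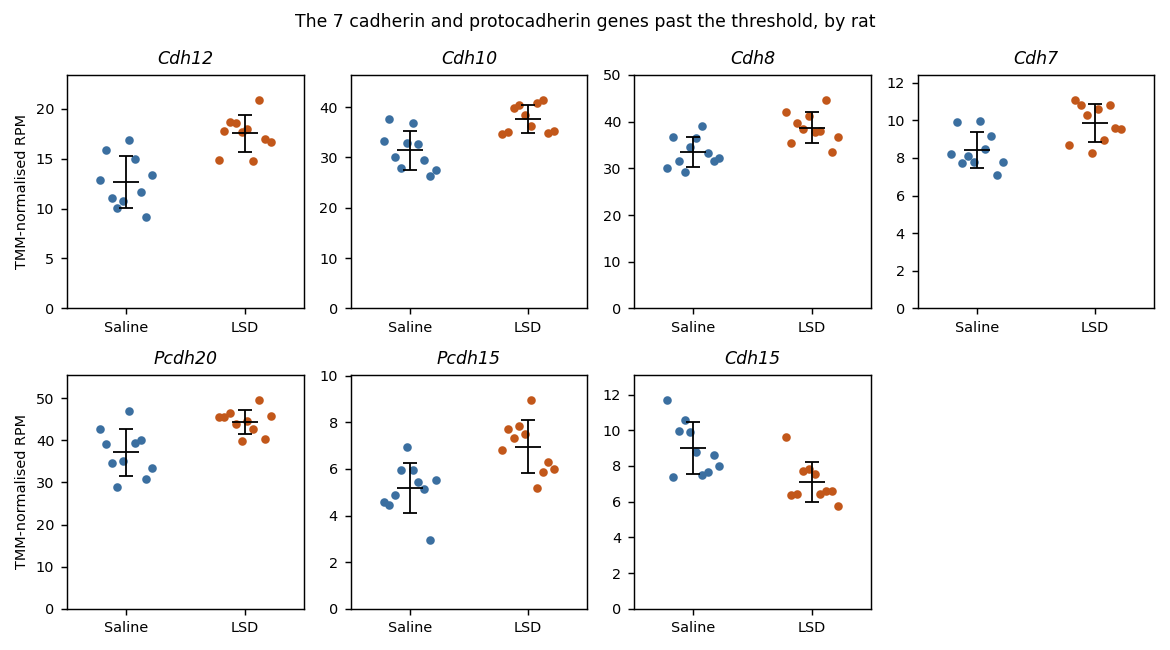
TMM-normalised RPM of the 7 genes past the threshold in each rat (points, 10 saline and 10 LSD), with the mean (horizontal bar) and SD (whiskers), on axes starting at 0. All 10 LSD-treated rats lie above the saline median for *Cdh12*, *Cdh10*, *Cdh8*, *Cdh7* and *Pcdh20*, and 9 of 10 lie below it for *Cdh15*.

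*Cdh12*, a type II cadherin of the brain, changed most. Its level was 14.8, 17.7 and 20.9 RPM (lowest, median and highest) in LSD-treated rats and 9.11, 12.3 and 16.9 RPM in controls. All 10 LSD-treated rats lay above the control median and 7 above every control. The means were 17.5 ± 1.81 and 12.7 ± 2.58 RPM (SD, n = 10 each), a log2 fold change of 0.46 (SE 0.0984, adjusted p = 0.00697).

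*Cdh10*, a type II cadherin expressed in frontal cortex, ranged over 34.7, 37.3 and 41.5 RPM (lowest, median and highest) in LSD-treated rats against 26.4, 31.4 and 37.7 RPM in controls. Every LSD-treated rat exceeded the control median, and 8 controls lay below every LSD-treated rat. The log2 fold change was 0.26 (SE 0.0654, adjusted p = 0.0126), and 0.15 with gene-span offsets, which remove each rat's trend of levels with gene length, where it did not pass (adjusted p = 0.115).

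*Cdh8*, which marks subsets of cortical projection neurons and takes part in synapse formation, stood at 33.4, 38.2 and 44.7 RPM against 29.1, 32.7 and 39.1 RPM in controls. Here 4 LSD-treated rats were above all controls and all 10 above their median. The log2 fold change was 0.21 (SE 0.0599, adjusted p = 0.0230). It did not pass with gene-span offsets (0.09, adjusted p = 0.348) or with all libraries drawn down to 11098076 reads (adjusted p = 0.0513). The reads were drawn at random and the draw was not repeated, so calls at equal depth could differ in another draw.

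*Cdh7*, another type II cadherin, had 8.25, 9.96 and 11.1 RPM in LSD-treated rats and 7.10, 8.14 and 9.96 RPM in controls. All LSD-treated rats lay above the control median, with 5 above every control. It passed the threshold narrowly, at 0.23 on the log2 scale (SE 0.0760, adjusted p = 0.0474), and remained past it in only 6 of the 20 fits that left out 1 rat each (adjusted p from 0.0206 to 0.0878). The adjusted p was 0.0640 without a filter on low counts, 0.232 at that equal depth and 0.240 with gene-span offsets.

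*Cdh15* (M-cadherin), a type I cadherin known from muscle and from cerebellar granule cells, went the other way. LSD-treated rats had 5.73, 6.61 and 9.61 RPM and controls 7.38, 8.70 and 11.7 RPM. In LSD-treated rats 9 of 10 values lay below the control median and 6 below every control, the exception being rat LSD 1, the highest of its group. Its log2 fold change was -0.34 (SE 0.0995, adjusted p = 0.0250). The call was lost without rat Saline 1 or without rat Saline 4, where the highest adjusted p was 0.0540, and when all libraries were drawn down to 11098076 reads (log2 fold change -0.33, adjusted p = 0.0921).

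Thus 4 of 13 type II cadherins rose (30.8%, against 6.48% of all genes) and none fell (against 8.54%), and their log2 fold changes had a median of 0.17. With gene-span offsets *Cdh12* alone of the 4 passed, and *Cdh22*, also of type II, was lower there (adjusted p = 0.0286), as in DESeq2 (adjusted p = 0.0391). Among 5 type I cadherins 1 fell and none rose (median 0.02). *Cdh2*, the main cadherin of cortical synapses, was at 118, 147 and 159 RPM in LSD-treated rats and 108, 140 and 147 RPM in controls (log2 fold change 0.09, SE 0.0578, adjusted p = 0.330). *Cdh4* (R-cadherin) had a value of 0.03 on the same scale (adjusted p = 0.897). For *Cdh1* (E-cadherin), found in epithelia and in the coverings of the brain, the fold change was 0.02 on the log2 scale (adjusted p = 0.975).

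Among the type II cadherins that did not pass, *Cdh6* and *Cdh18* had positive log2 fold changes of 0.26 (adjusted p = 0.0839) and 0.17 (adjusted p = 0.0813). *Cdh22*, a brain cadherin, had the most negative type II value, -0.30 (SE 0.106, adjusted p = 0.0600), with 64.1, 85.2 and 95.4 RPM in LSD-treated rats against 69.7, 95.3 and 135 RPM in controls. *Cdh20* hardly varied between LSD-treated rats (coefficient of variation 4.67%) with a log2 ratio of -0.02 between the groups (adjusted p = 0.881).

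*Cdh5* (VE-cadherin), which seals the junctions of blood vessel endothelium, had 12.7, 18.4 and 25.8 RPM in LSD-treated rats and 12.8, 18.1 and 31.5 RPM in controls, with a log2 fold change of -0.06 (SE 0.140, adjusted p = 0.804). Its sign depended on single rats, with fold changes from -0.13 to 0.05 on the log2 scale when each rat was left out. *Cdh13* (T-cadherin), which is anchored to the membrane by a lipid and lacks a cytoplasmic tail, had 138, 186 and 224 RPM against 171, 206 and 256 RPM in controls. Its log2 fold change was -0.17 (SE 0.0805, adjusted p = 0.158).

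Several of these genes are neighbours in the GRCr8 gene order. On chromosome 2, *Cdh6*, *Cdh9*, *Cdh10*, *Cdh12* and *Cdh18* follow each other as the cadherin genes of that chromosome, with log2 fold changes of 0.26, -0.07, 0.26, 0.46 and 0.17, of which those of *Cdh10* and *Cdh12* passed the threshold. On chromosome 13, *Cdh7* (0.23) lies between *Cdh20* (-0.02) and *Cdh19*, at 0.43 on the log2 scale (adjusted p = 0.201). *Cdh19* was called higher in edgeR with the replicate number as a block (adjusted p = 0.0361). On chromosome 19, *Cdh8*, which rose, and *Cdh15*, which fell, share the chromosome with *Cdh5*, *Cdh11*, *Cdh3*, *Cdh1* and *Cdh13*, which did not pass.

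**Figure D2:**
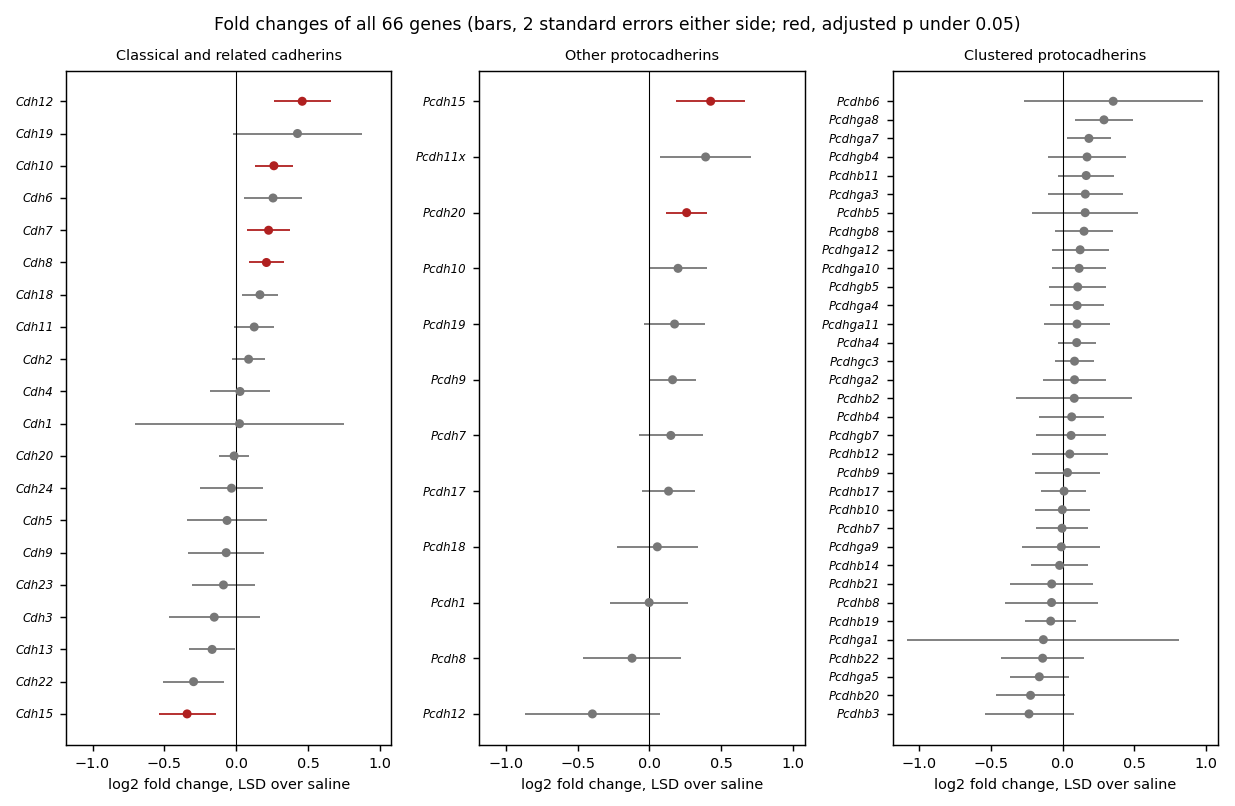
Log2 fold change of LSD-treated rats over controls for all 66 genes in the 3 groups (points), with bars of 2 standard errors either side and genes past the threshold in red. The 7 red genes lie among the cadherins and the other protocadherins, and the 34 clustered genes lie between -0.23 and 0.35.

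Of the 12 other protocadherins, 2 were higher (16.7%, against 6.48% of all genes) and none lower (against 8.54%), and 9 of 12 log2 fold changes were above 0 (median 0.16), as were 50.4% over all genes. *Pcdh20*, a protocadherin of cortical neurons, had 39.9, 45.1 and 49.6 RPM in LSD-treated rats and 28.9, 37.2 and 47.0 RPM in controls. All LSD-treated rats exceeded the control median and 7 controls lay below every LSD-treated rat. The log2 fold change was 0.26 (SE 0.0718, adjusted p = 0.0203).

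*Pcdh15*, best known from the tip links of hair cells in the inner ear and also expressed in oligodendrocyte precursors, had 5.16, 7.08 and 8.96 RPM in LSD-treated rats and 2.97, 5.29 and 6.95 RPM in controls. In LSD-treated rats 9 of 10 values lay above the control median and 5 above all controls. Its log2 fold change was 0.43 (SE 0.121, adjusted p = 0.0226). It did not pass with gene-span offsets (adjusted p = 0.0683), at equal depth (adjusted p = 0.0839) or without the 4 rats richest in striatal markers (adjusted p = 0.0532). Among the markers of oligodendrocyte precursors, *Olig1* fell (-0.32 on the log2 scale, adjusted p = 0.0285), while *Pdgfra* (0.05, adjusted p = 0.745), *Vcan* (0.17, adjusted p = 0.234) and *Cspg4* (-0.16, adjusted p = 0.405) did not pass. The part of these cells in the value of *Pcdh15* was not tested.

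None of the 4 delta-1 and 5 delta-2 protocadherins, the conserved subfamilies that differ in their cytoplasmic motifs, passed the threshold in the main fit. Of all genes, 6.48% were higher there and 8.54% lower. The median log2 fold changes of these subfamilies were 0.16 and 0.13. *Pcdh9* (0.16, adjusted p = 0.178), *Pcdh10* (0.20, adjusted p = 0.181) and *Pcdh19* (0.18, adjusted p = 0.273), the last a gene of an epilepsy linked to the X chromosome, had positive values, as had *Pcdh11x* (0.39, SE 0.159, adjusted p = 0.0962). *Pcdh11x* was called higher in edgeR with the replicate number as a block (adjusted p = 0.0192) and without rat LSD 9. Without the 4 rats richest in striatal markers, the log2 fold changes of *Pcdh10*, *Pcdh19* and *Pcdh11x* were 0.08, 0.06 and 0.26. Those of *Pcdh7* and *Pcdh17* were 0.03 and 0.035 there, against 0.15 and 0.13 in the main fit. For *Pcdh18*, *Pcdh1* and *Pcdh8* they were -0.058, -0.12 and -0.30, against 0.055, -0.002 and -0.12. In *Pcdh10*, which acts in axon growth and synapse elimination, the levels were 217, 281 and 315 RPM against 146, 256 and 286 RPM in controls, with 3 LSD-treated rats above every control and 4 controls below every LSD-treated rat.

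The promoters of the 2 genes that stayed past the threshold under every alternative and without any single rat, *Cdh12* and *Pcdh20*, and of the gene that fell, *Cdh15*, are printed from RefSeq on GRCr8, 5′ to 3′ along the gene, with each CG dinucleotide in capitals because such dinucleotides are where promoters can be methylated. They belong to the start that RefSeq's table gives for each gene, which is the gene's annotated 5′ end in *Pcdh20* but lies inside the gene in the other pair, 684673 bases from that end in *Cdh12* and 2488 bases in *Cdh15*. The start lay inside the gene in 22 of the 51 genes with a promoter, by 6 to 684673 bases, and which start the reads came from was not tested.
Cdh12, chr2:72886282-72886581, + strand: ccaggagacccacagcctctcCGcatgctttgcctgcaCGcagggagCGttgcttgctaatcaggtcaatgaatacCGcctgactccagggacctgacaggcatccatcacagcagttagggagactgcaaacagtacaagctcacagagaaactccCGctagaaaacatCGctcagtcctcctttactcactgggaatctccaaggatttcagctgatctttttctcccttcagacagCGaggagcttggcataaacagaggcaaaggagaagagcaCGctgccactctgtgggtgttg
Pcdh20, chr15:70840249-70840548, - strand: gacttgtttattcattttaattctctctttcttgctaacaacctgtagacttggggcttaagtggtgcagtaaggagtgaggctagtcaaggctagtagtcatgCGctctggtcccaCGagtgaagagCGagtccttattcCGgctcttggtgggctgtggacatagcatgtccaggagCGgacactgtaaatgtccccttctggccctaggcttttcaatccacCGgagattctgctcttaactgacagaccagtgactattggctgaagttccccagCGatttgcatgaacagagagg
Cdh15, chr19:67814407-67814706, + strand: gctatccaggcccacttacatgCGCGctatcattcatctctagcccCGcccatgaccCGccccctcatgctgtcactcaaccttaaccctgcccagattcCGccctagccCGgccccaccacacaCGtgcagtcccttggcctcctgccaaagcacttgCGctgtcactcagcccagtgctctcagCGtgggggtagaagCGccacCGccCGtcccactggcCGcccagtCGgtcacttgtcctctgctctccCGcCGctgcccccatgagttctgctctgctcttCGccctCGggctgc
The promoters of *Cdh12* and *Pcdh20* hold 8 and 7 CG dinucleotides, near the median of 7 over all promoters, and that of *Cdh15* holds 18. The medians were 10.5 over the 12 cadherin promoters, 10 over the 11 of other protocadherins and 7 over the 28 clustered promoters, whose GC content was lower (41.3%, against 51.7% over all promoters). Methylation was not analysed here.

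None of the 34 clustered protocadherins passed the threshold in edgeR's test, against 6.48% of all genes higher and 8.54% lower. In that test 2 of the 34 had an unadjusted p under 0.05, against 5111 of all 16605 genes. DESeq2 called 1, *Pcdhga8*. In edgeR, *Pcdhga8* was also called with at least 1 CPM and in 4 of the 20 fits without 1 rat, and *Pcdhga7* and *Pcdhga8* were both called with total counts only and at equal depth. The log2 fold changes of the 34 genes had a median of 0.07, which ran from 0.018 to 0.094 when each rat was left out. The median was -0.002 over the 17 beta genes (8 above 0) and 0.10 over the 16 gamma genes (13 above 0). Over all genes 50.4% were above 0. Summed over the cluster, beta genes gave 101 ± 6.77 RPM in LSD-treated rats and 102 ± 11 RPM in controls, and gamma genes 258 ± 17.3 and 240 ± 27.8 RPM (SD, n = 10 each). The gamma sum ran from 235 to 284 RPM (median 258) in LSD-treated rats and from 173 to 275 RPM (median 248) in controls. The groups thus overlapped. Rat Saline 9 was the lowest control for 37 of the 66 members, most gamma genes among them.

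*Pcdha4*, the sole alpha entry, had 154, 192 and 210 RPM against 134, 180 and 191 RPM in controls (log2 fold change 0.10, SE 0.0657, adjusted p = 0.327). The RefSeq entry of that name lists other alpha genes as synonyms, and whether their reads were counted under it was not tested. *Pcdhgc3*, a C-type gamma gene that is expressed without the random choice of the others, had 82.3, 97.6 and 104 RPM against 69.8, 88.4 and 111 RPM (log2 fold change 0.08, SE 0.0687, adjusted p = 0.441). The clustered gene nearest the threshold was *Pcdhga8*, at 7.59, 10.3 and 13.1 RPM against 6.80, 8.54 and 11 RPM (log2 fold change 0.29, SE 0.101, adjusted p = 0.0551). *Pcdhga7* followed at 0.18 on the log2 scale (adjusted p = 0.109).

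**Figure D3:**
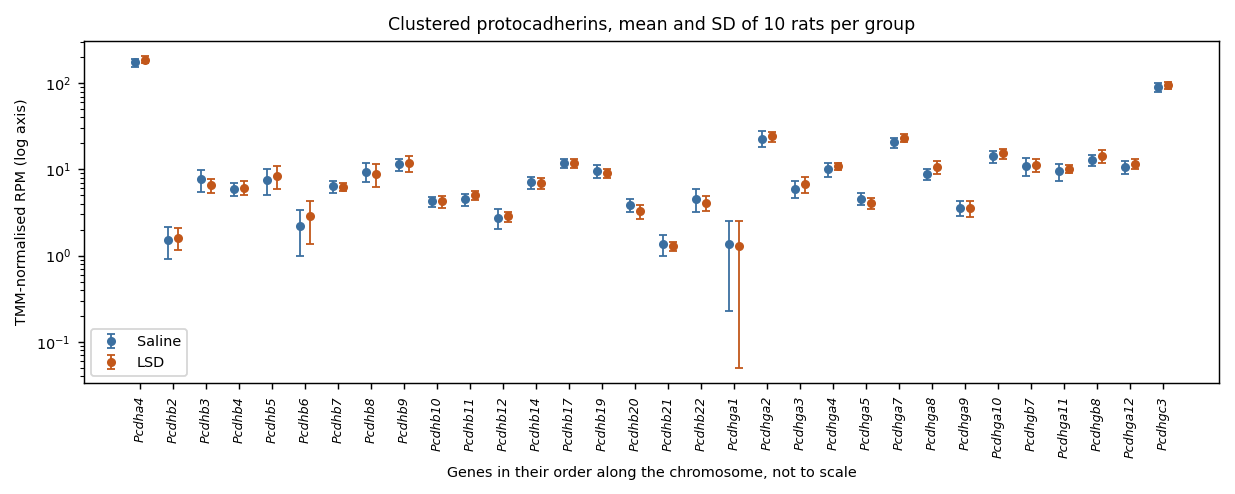
Mean and SD of TMM-normalised RPM over 10 rats per group on a log axis, for the 32 clustered protocadherins with a place in the GRCr8 order, from *Pcdha4* through the beta genes to *Pcdhgc3*. No gene passed the threshold, and *Pcdhga1* and *Pcdhb6*, with coefficients of variation of 96.2% and 52.8% in LSD-treated rats, have the widest bars.

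Levels of different genes can be compared only per length, which could be set for 15 beta genes of short span. Over all 20 rats *Pcdhb8* was highest, at 3.90 ± 1.03 RPM per kb of gene span (SD), followed by *Pcdhb9* at 3.67 ± 0.658 and *Pcdhb19* at 3.31 ± 0.467, each less than 1 SD of either gene from the one before it in this order. At the lower end were *Pcdhb21* at 0.451 ± 0.0964, *Pcdhb2* at 0.563 ± 0.186 and *Pcdhb6* at 0.750 ± 0.409 RPM per kb.

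A few members varied between rats far more than the rest, in both groups. Over the 66 genes the median coefficient of variation between rats was 14.6% in LSD-treated rats and 19.0% in controls, whereas it was 96.2% and 83.4% for *Pcdhga1*, 52.8% and 55.7% for *Pcdhb6*, and 56.7% and 52.7% for *Cdh1*. *Pcdhga1* had 2.78, 2.86 and 3.52 RPM in rats LSD 1, LSD 6 and LSD 8 and 3.41, 3.47 and 1.76 RPM in rats Saline 7, Saline 8 and Saline 9, while the other rats lay between 0.346 and 0.855 RPM. The rats that stand apart in *Pcdhga1* were thus 3 of each group.

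The beta genes *Pcdhb5*, *Pcdhb6* and *Pcdhb8* also varied between rats. Coefficients of variation in LSD-treated rats and controls were 30.4% and 33.3% for *Pcdhb5* and 29.4% and 24.6% for *Pcdhb8*. Other members varied as much, such as *Cdh19* (37.2% and 34.3%) and *Pcdh12* (34.2% and 38.0%). *Pcdhb7*, which lies between *Pcdhb6* and *Pcdhb8*, had 11% in LSD-treated rats and 15.9% in controls. In rats LSD 1 to LSD 10, *Pcdhb6* had 1.71, 3.29, 3.56, 5.94, 1.29, 3.87, 3.22, 3.12, 1.27 and 1.22 RPM, and in rats Saline 1 to Saline 10 it had 1.48, 3.39, 1.17, 2.76, 1.48, 4.63, 1.64, 3.19, 0.906 and 1.31 RPM. Rat LSD 4 had the highest *Pcdhb6* of all 20 rats and also the highest *Pcdhb5* (13.8 RPM) and the lowest *Pcdhb8* (4.80 RPM). Rat Saline 6, next in *Pcdhb6*, was also next in *Pcdhb5* (11.3 RPM), with 9.08 RPM of *Pcdhb8*. Rat LSD 1, by contrast, had the highest *Pcdhb8* (13.5 RPM) beside 1.71 RPM of *Pcdhb6* and 6.26 RPM of *Pcdhb5*. None of *Pcdhb5*, *Pcdhb6* and *Pcdhb8* passed the threshold between the treatment groups (adjusted p = 0.603, 0.477 and 0.792). Reads that near-identical clustered genes share can be split between them or lost in counting, so these levels are uncertain.

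**Figure D4:**
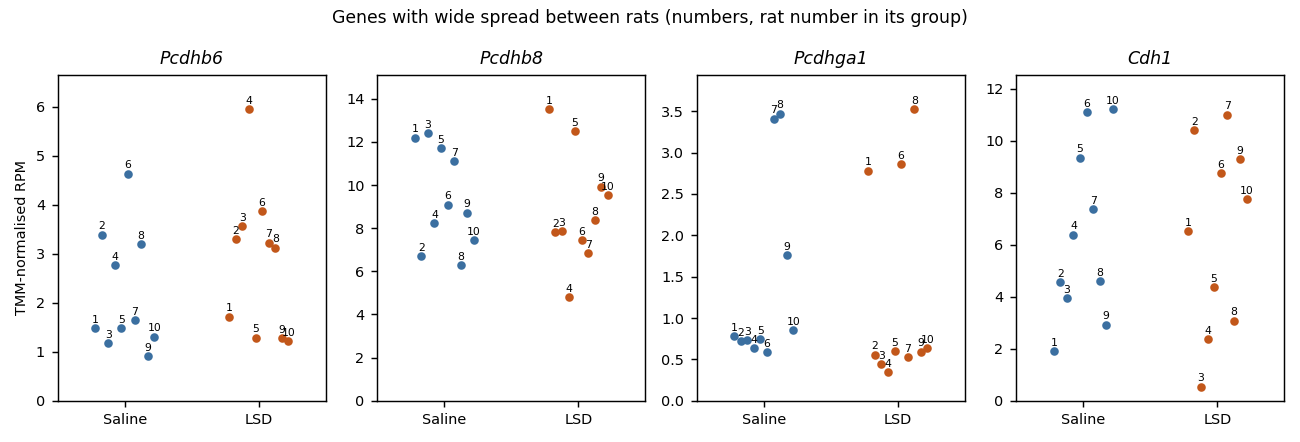
TMM-normalised RPM of *Pcdhb6*, *Pcdhb8*, *Pcdhga1* and *Cdh1* in each rat (points labelled with the rat's number in its group), on axes starting at 0. *Pcdhga1* is at 1.76 RPM or above in 3 rats of each group and at 0.855 RPM or below in the rest, and *Cdh1* runs from 0.544 to 11.2 RPM.

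*Cdh1* ran from 0.544 RPM in rat LSD 3 to 11 RPM in rat LSD 7 and from 1.91 RPM in rat Saline 1 to 11.2 RPM in rat Saline 10. Markers of meningeal fibroblasts moved alongside, with a summed level of 36.7 RPM in rat LSD 3, 200 RPM in rat LSD 7, 54.1 RPM in rat Saline 1 and 343 RPM in rat Saline 10. Neither *Cdh1* nor any of the 5 meningeal markers passed the threshold between the groups, and the part of the meninges in the levels of *Cdh1* was not tested.

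Rats also differed in markers of the neighbouring striatum. The summed level of 5 striatal neuron markers was 458, 571 and 534 RPM in rats Saline 2, Saline 8 and Saline 9 and 411 RPM in rat LSD 9, against group medians of 290 RPM in controls and 234 RPM in LSD-treated rats. All 5 markers had negative log2 fold changes (median -0.62) without passing the threshold, and markers of mature oligodendrocytes moved the same way (5 of 5 negative, median -0.36, 0 called). Rat Saline 9 was the lowest control for 37 of the 66 genes, and rat LSD 10, with 194 RPM of striatal markers, was the lowest LSD-treated rat for 29. Without these 4 rats, a choice made after seeing the data, *Cdh7*, *Cdh8*, *Cdh10*, *Cdh12* and *Pcdh20* were higher (5 genes, against 10.5% of all genes) and *Cdh15* and *Cdh22* lower (2 genes, against 10.4%), while *Pcdh15* did not pass (log2 fold change 0.32, adjusted p = 0.0532). Of the markers of other cells, *Gad2* and *Vip* of inhibitory neurons rose, *Slc32a1* and *Sst* of the same neurons fell, as did *Tubb3* of neurons in general, *Olig1* and the mural marker *Kcnj8*, and none of those of excitatory neurons, astrocytes, microglia, endothelium or choroid plexus passed.

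Cadherin genes are long, and long genes as a whole were higher in LSD-treated rats. Gene span, the distance between annotated ends on GRCr8, had a median of 154930 bases over the cadherins and 79809 over the other protocadherins. It was 9714 over the clustered genes (3019 over the beta genes) and 24862 over all genes. The 6 members longer than 500 kb had a median log2 fold change of 0.28 (2 called higher), where all 212 genes of that length had 0.14 and 18.9% were called higher. In the range of 100 to 500 kb, 22 members had a median of 0.11 and 13.6% were higher, against 0.10 and 17.0% of 2009 genes. The 15 of these members outside the gamma cluster had a median of 0.125. Of these 15, 3 were higher, a larger share than over all genes of that range. Up to 100 kb, 36 members had a median of 0.03 against -0.03 over 12045 genes, and the 29 members outside the gamma cluster had -0.002.

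When each rat's trend with gene span was removed by centred offsets, 2 members were higher (*Cdh12* and *Pcdh20*, against 3.57% of all genes) and 3 lower (*Cdh13*, *Cdh15* and *Cdh22*, against 6.81%). *Cdh12* stood at 0.34 on the log2 scale (adjusted p = 0.0179), and *Pcdh20*, with a span of 6257 bases, had 0.33 (adjusted p = 0.0133). *Cdh10* (0.15, adjusted p = 0.115), *Cdh8* (0.09, adjusted p = 0.348), *Cdh7* (0.13, adjusted p = 0.240) and *Pcdh15* (0.30, adjusted p = 0.0683) no longer passed. *Cdh13*, among the longest cadherin genes, went from -0.17 to -0.30 (adjusted p = 0.0222), and *Cdh22* from -0.30 to -0.39 (adjusted p = 0.0286).

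**Figure D5:**
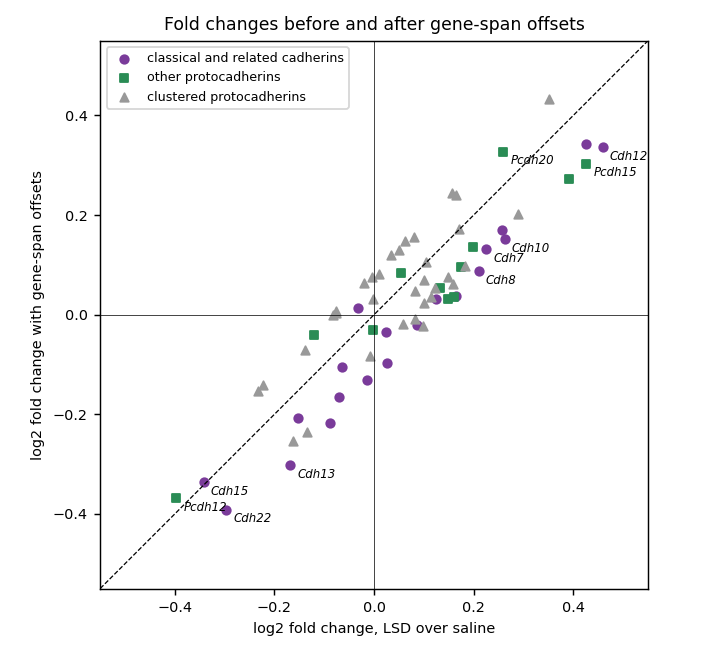
Log2 fold change of each of the 66 genes without (horizontal axis) and with (vertical axis) offsets for gene span, with equal values on the dashed line and marker shapes for the 3 groups of genes. *Cdh10*, *Cdh8* and *Cdh7* fall below the line to 0.15, 0.09 and 0.13, *Pcdh20* lies above it, and *Cdh13* and *Cdh22* move further below 0.

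For the other settings, the members called are counted out of 66 (64 with at least 1 CPM). Percentages in brackets are the share of all genes called in the same direction, not of the members. Higher members numbered 6 with median-ratio factors (6.34% of all genes were higher), 10 with total counts only (9.06%), 5 without a filter (3.81%), 7 with at least 1 CPM (8.04%) and 7 in DESeq2 (9.68%). With the replicate number as a block they numbered 8 (8.16%), with the block and the span offsets 3 (4.72%), and at equal depth 5 (5.56%). Lower members numbered 1 with median-ratio factors (8.47% of all genes), 1 with total counts only (5.17%), 1 without a filter (3.32%), 1 with at least 1 CPM (10.5%) and 2 in DESeq2 (12.4%). They numbered 2 with the block (9.67%), 3 with the block and the span offsets (7.93%) and 0 at equal depth (6.66%). *Cdh12* and *Pcdh20* were among the higher members under each of these settings.

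The partners of these adhesion molecules were read from 5 lists of genes. Of 15 proteins that act on clustered protocadherin promoters, 6 were higher (against 6.48% of all genes) and none lower (against 8.54%), and 14 of 15 had a positive log2 fold change (median 0.22), as had 50.4% of all genes. Among them were *Nipbl*, which loads cohesin (0.32, SE 0.0779, adjusted p = 0.0118), *Wapl*, which releases it (0.30, adjusted p = 0.0142), and its cofactors *Pds5a* (0.30, adjusted p = 0.0190) and *Pds5b* (0.26, adjusted p = 0.00666). *Smchd1*, which silences the clusters, was also higher (0.28, adjusted p = 0.0367). *Nipbl* stood at 31.9, 38.5 and 41.4 RPM in LSD-treated rats and at 24.0, 29.5 and 37.7 RPM in controls, all LSD-treated rats lying above the control median. With span offsets 3 of the 6 remained past the threshold, *Nipbl*, *Pds5b* and *Wapl*.

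Of 14 catenins and adaptors tested, 2 rose (14.3%, against 6.48% of all genes) and none fell (against 8.54%). Of their log2 fold changes, 7 were above 0 and 7 below. The 2 that rose were *Ctnnal1* (0.23, adjusted p = 0.0415) and *Afdn* (afadin, which links adhesion receptors to actin, 0.26, adjusted p = 0.0231), and neither passed with span offsets. β-catenin itself, *Ctnnb1*, had 0.03 (adjusted p = 0.708). Among 14 cytoplasmic partners of protocadherins, the WAVE complex genes *Nckap1* (0.17, adjusted p = 0.0378), *Abi1* (0.26, adjusted p = 0.0318) and *Abi2* (0.23, adjusted p = 0.0114) rose and none of these passed with span offsets. The other 11 partners did not pass. Of these, *Wasf1* (-0.16, adjusted p = 0.178), *Wasf2* (-0.06), *Wasf3* (-0.05) and *Brk1* (-0.07), also of the WAVE complex, had negative values. *Cyfip1* (0.11) and *Cyfip2* (0.09), of the same complex, had positive values. Fitting the replicate block, with or without span offsets, brought *Wasf1* past the threshold as a gene that fell. Of 8 genes for sheddases and subunits of γ-secretase, which cut cadherins, 1 fell (12.5%, against 8.54% of all genes) and none rose (against 6.48%). It was *Psen2*, a catalytic subunit, at 32.0, 34.4 and 43.8 RPM in LSD-treated rats against 39.3, 46.2 and 54.7 RPM in controls (-0.37, SE 0.0646, adjusted p = 0.00357). In all 10 LSD-treated rats *Psen2* lay below the control median, and it passed with span offsets as well. None of the 19 tested genes of the wider superfamily, with the Celsr, Fat, Dachsous and calsyntenin genes, passed in either direction. Of all genes, 6.48% were higher and 8.54% lower.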

How the data were processed

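RNA from the mPFC of 20 rats was sequenced with 1 library each. The authors trimmed the reads, aligned them with HISAT2 to rn6 (Rnor_6.0, per the submitters' processing notes) and counted them with HTSeq, and they deposited raw counts per gene symbol; versions, annotation and strand setting are not given in the sources used here. The last 5 entries carry no name (25.5% to 29.0% of a library's summed counts) and were left out. Reads of near-identical clustered genes, or of exons they share, may be split or lost.

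Genes that reached 5 reads in 10 or more libraries were fitted in edgeR 4.0.16 (R 4.3.3; TMM, quasi-likelihood test, Benjamini-Hochberg adjustment over 16605 genes, threshold 0.05), and RPM were computed from the TMM library sizes. Spread is the SD of RPM over the rats of a group, and p-values come from the test of the difference between the groups. DESeq2 1.42.0 and other scalings, filters, the replicate block, gene-span offsets (50 bins, smoothed over 5, log2(RPM + 1), GRCr8 spans for 85.9% of genes), equal depth, each rat left out, and the 4 rats with over 400 RPM of summed striatal markers left out (added after seeing the data) were alternatives. Equal depth rests on a random draw of reads that was not repeated.

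Named were all called members, the called pathway genes except 1 that is not reported here, and *Cdh2*, *Cdh5*, *Cdh8*, *Cdh13*, *Pcdh9*, *Pcdh10*, *Pcdh15*, *Pcdh19* and *Pcdhgc5* (*Pcdhac2* was not analysed here). The members with the highest level per length could be set only for beta genes, and further genes were chosen after their values were seen. The members and all lists were chosen with earlier results of these data known.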

Additional observations from a re-analysis of the deposited data

Results flagged for a closer look

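In the controls, *Cdh5* was 31.5 RPM in rat Saline 10, against 22.2 RPM in the next highest control, a gap past Dixon's critical ratio for 10 rats. It is the only such value among 32 groups examined, and chance gives about 1 in 20 groups. In the same rat the summed mural markers were at 109 RPM and the summed endothelial markers at 270 RPM, each the highest or equal highest of the controls, and their part in the value was not tested. *Cdh5* did not pass the threshold between treatment groups.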

How the results depend on the processing

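The main counts were 6 members higher and 1 lower, 1076 and 1418 of all genes, and 11 pathway genes higher and 1 lower. With total counts only, 10 members were higher, 2 of them clustered, and 858 genes of all were lower; the share of lower among called genes was 36.3% in place of 56.9%, and the median of all genes moved to 0.047 (log2). Without a filter 836 genes were lower (46.5% of those called). With at least 1 CPM, 1 clustered gene was higher and 2 pathway genes lower. DESeq2 (adjusted p for 14029 genes) gave 1 clustered gene higher, 2 members lower, both cadherins, and 2 pathway genes lower. With the replicate block, 8 members were higher and 2 lower, both cadherins, and 3 pathway genes lower. Of all genes, 1355 were higher with the block and 1606 lower. Same-numbered rats deviated together only weakly (mean correlation 0.102, 6 of 10 pairs over 0.1, and 1 LSD-treated rat best with its own number). The mean was -0.0112 between LSD-treated rats and controls of other numbers. The numbers were not taken as pairs in the main fit. With span offsets, 2 members (1 cadherin, 1 other protocadherin), 3 pathway genes and 592 of all genes were higher, and 3 members (3 cadherins) and 3 pathway genes lower; with the replicate block added, 3 members (1 cadherin) and 5 pathway genes were higher, and 3 members (3 cadherins) and 4 pathway genes lower. *Cdh2* turned to -0.02 in both (-0.021 and -0.022). With reads drawn to the smallest library, 2 cadherins, 2 clustered genes and 1 other protocadherin were higher and 0 members lower, so 0 cadherins. Without the 4 rats rich in striatal markers, added after seeing the data, 1701 genes and 1 other protocadherin were higher, and 2 members (2 cadherins) and 3 pathway genes lower. The cause of these shifts was not tested.

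Leaving out each rat gave 5 to 8 members higher and 0 to 2 lower, 663 to 1669 genes higher and 957 to 1907 lower, 7 to 15 pathway genes higher and 1 to 3 lower, 3 to 5 cadherins higher and 0 to 2 lower, 0 to 1 clustered gene and 2 to 3 other protocadherins higher. The medians ran from -0.031 to 0.072 for cadherins, 0.018 to 0.094 for clustered and 0.111 to 0.188 for other protocadherins, and *Cdh5* from -0.132 to 0.048. *Cdh12* and *Pcdh20* kept their call in all of these fits. Depth limits *Pcdh12*, *Pcdhga1* and *Cdh19*, with as few as 4 reads in a library.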
